A study of Mus musculus with 6 samples.

Results

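The DNA replication and S phase genes described here are 51 mouse genes that license and fire replication origins, copy the DNA, supply nucleotides, carry DNA methylation and nucleosomes through replication, or switch this programme on. They were chosen by name, with no measured value in the rule but with earlier results of these data known. They were found on the arrays through the RefSeq accession of each probe. All 51 had a probe. After a filter on dim probes 48 of them were among the 20020 genes and unnamed features tested, of which 13191 had a gene symbol.

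A dividing cell copies its genome in S phase. In the preceding G1 phase the origin recognition complex, Cdc6 and Cdt1 load the ring-shaped MCM helicase onto origins, and kinases and firing factors then turn each ring into a moving fork. Most of these genes are transcribed under E2F factors as cells leave quiescence. The adult mouse heart is known for cardiomyocytes that rarely divide, while its fibroblasts, endothelial cells and macrophages can re-enter the cycle.

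RNA from whole hearts of C57/B6 mice aged 8 weeks was hybridised in 1 colour (Cy3) to Agilent mouse arrays, with 1 array per heart. The 3 hearts called KO-labelled here had the genotype PHD2/3f/f; Cre+/-, and the 3 control hearts had PHD2/3f/f; Cre-/-, so that floxed PHD2 and PHD3 alleles were shared by both groups. PHD2 and PHD3 are oxygen-dependent prolyl hydroxylases that mark hypoxia-inducible factors for destruction. The labels call the hearts biological replicates, name no Cre driver, inducer or deleted exons, and describe the RNA preparation in 2 conflicting ways, with a column kit for hearts and with a blood RNA kit followed by globin depletion. Any effect of Cre itself cannot be told apart from that of the deletion in this design. All 6 arrays lay on 1 slide, the KO-labelled arrays in a different line of positions from the control arrays, so position and genotype cannot be told apart.

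Values are log2 signals with the 75th percentile of their array subtracted, called signals below, and a difference is the mean of KO-labelled hearts minus the mean of control hearts. Egln1, the gene of PHD2, had signals of -0.39, 0.29 and 0.06 in KO-labelled hearts, against 1.27, 1.39 and 0.99 in control hearts, and was lower in the KO-labelled hearts by limma's moderated test (difference -1.23 ± 0.21 SE, adjusted p = 0.00653). Egln3, the gene of PHD3, went against the label (difference 1.98 ± 0.17 SE, adjusted p = 0.00166). Neither of its 2 probes can be placed against the deleted exons here. Between 46.3% and 51.0% of the 55608 probes kept were well above background on an array and 0 were saturated, and the number of arrays limits the precision. All 6 cardiomyocyte markers examined were well above background on every array.

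Every role examined held replication genes that were higher in KO-labelled hearts. At an adjusted p of 0.05, 36 of the 48 tested genes were higher, 1 was lower and 11 did not pass. Over all 20020 genes and features 39.1% passed, 16.1% higher and 23.0% lower, and over the 13191 with a symbol 42.0% passed, 19.1% higher and 22.9% lower. The median difference of the 48 genes was 1.39, with a range of -0.88 to 4.16, beside -0.11 over all genes and features and -0.07 over those with a symbol. By sign alone 44 lay higher and 4 lower, and 31 lay at least 1 log2 unit higher, a size reached by 10.9% of the genes with a symbol. The 6 hearts fell into separate groups without overlap for 41 of the 48 genes, beside 55.9% of all genes and features and 59.2% of those with a symbol. KO-labelled hearts lay above control hearts without overlap for 22.7% of all genes and features and 26.4% of those with a symbol, and for 38 of the 48. In a bulk sample, more cells of a type and more RNA per cell cannot be told apart.

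**Figure D1:**
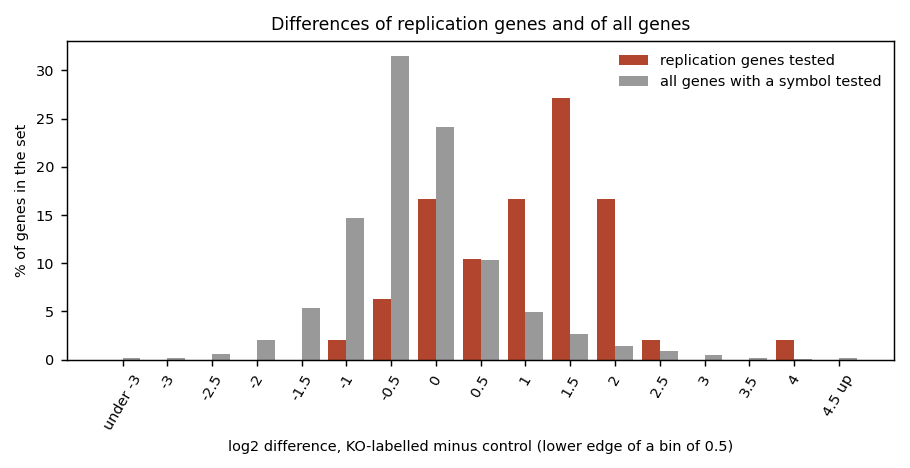
Share of genes (vertical axis, %) by log2 difference between KO-labelled and control hearts (horizontal axis, bins of 0.5), for the 48 tested replication genes and for all 13191 tested genes with a symbol. The replication genes lie to the right, with a median of 1.39, and all genes with a symbol have a median of -0.07.

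The count of 36 was not carried by genes too dim to measure in one group. Of the 48 genes, 42 were well above background on all 6 arrays, and 31 of these were higher. The other 6 were Ticrr, Dbf4, Cdc6 and Hells, which were well above background on no control array, and Pole2 and Cdc45, which were on 2 of 3. The origin recognition gene Orc1, the kinase gene Cdc7 and the cyclin gene Ccne2 were not well above background on every array of either group and were not tested. The spread between hearts was small, with a median SD over the 48 genes of 0.13 in KO-labelled hearts and 0.21 in control hearts.

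The direction of the background depended on scaling, while the replication genes kept theirs. The share of all calls that were higher was 41.1% with the scaling used throughout, 55.3% after cyclic loess and 58.7% when arrays were levelled on E1A spike-in probes, with a median difference over all genes of -0.11, 0.02 and 0.12 under these 3 scalings. Of the replication genes 36, 38 and 37 were higher and 1 was lower under each of them.

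Promoter sequences were examined for E2F letters because the genes moved together and the E2F genes E2f1 and E2f8 were among them. RefSeq windows (GRCm38.p6) of 250 bases before to 50 bases after a transcript start were at hand for 42 of the 51 genes. The E2F letters TTTCCCGC, TTTCGCGC, TTTGCCGC or TTTGGCGC, on either strand, were in a window of 17 of these 42 genes (40.5%) and of 704 of all 27025 genes with a window (2.6%). Among the 31 genes with a window that were higher, 14 held them (45.2%), and among the 9 that were tested and not higher, 2 did (22.2%), a difference that was not tested. In the same 31 and 9 genes the NF-Y letters were in 54.8% and 55.6%, the CHR letters in 19.4% and 33.3% and the hypoxia response letters in 64.5% and 77.8%. The CCAAT box of NF-Y was in 54.8% of the 42 genes and 41.1% of all genes, the CHR letters TTTGAA or TTCGAA in 23.8% and 21.7%, and the hypoxia response letters ACGTG or GCGTG in 69.0% and 46.7%. The letters TTTCGCGC and TTTGGCGC can overlap on opposite strands, as they do in Mcm5 and Mcm6. The 27025 genes with a window were not matched to the 42 for base content or for signal in these hearts. A match is a description of letters and not of a bound site.

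Shown here are the parts of the windows that lie before the annotated gene for the 3 genes that were higher and had an E2F match there. They let the matches be seen in context and are written 5′ to 3′ along the gene, with the E2F letters in capitals. Mcm5 is at chr8:75109259-75109467 on the plus strand with 2 overlapping matches, Cdca7 at chr2:72475969-72476186 on the plus strand with 1 match, and Mcm6 at chr1:128359706-128359955 on the minus strand with 3 matches, of which 2 overlap.
Mcm5: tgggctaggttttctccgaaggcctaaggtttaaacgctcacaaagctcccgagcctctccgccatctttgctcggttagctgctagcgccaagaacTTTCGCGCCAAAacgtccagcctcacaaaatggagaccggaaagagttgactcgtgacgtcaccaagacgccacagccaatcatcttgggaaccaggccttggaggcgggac
Cdca7: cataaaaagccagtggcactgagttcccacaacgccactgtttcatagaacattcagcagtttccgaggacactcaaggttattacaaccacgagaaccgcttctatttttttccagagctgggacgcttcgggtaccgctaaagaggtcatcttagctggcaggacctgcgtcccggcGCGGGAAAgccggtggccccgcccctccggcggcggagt
Mcm6: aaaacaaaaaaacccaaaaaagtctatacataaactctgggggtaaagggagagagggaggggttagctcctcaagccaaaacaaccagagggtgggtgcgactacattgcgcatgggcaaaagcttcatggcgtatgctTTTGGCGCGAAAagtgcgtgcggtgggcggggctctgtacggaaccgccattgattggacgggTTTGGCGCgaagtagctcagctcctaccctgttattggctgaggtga

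Mcm5 rose by 2.38, Cdca7 by 2.19 and Mcm6 by 1.72 on the log2 scale, and each is described under its role below. The GC content of these 3 stretches was 55.5% for Mcm5, 56.4% for Cdca7 and 52.4% for Mcm6. Of the genes with large rises, Uhrf1, Cdt1 and Mcm3 had E2F letters in their windows only inside the annotated gene.

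Origin licensing was the role with the most genes. Of its 10 tested genes 9 were higher and 1 was lower, with a median difference of 1.47. All 6 subunits of the MCM helicase were higher, Mcm5 by 2.38, Mcm3 by 1.86, Mcm6 by 1.72, Mcm2 by 1.28, Mcm7 by 1.28 and Mcm4 by 1.27. Mcm3 (NM_008563) had signals of 2.86, 2.99 and 3.11 in KO-labelled hearts, against 0.95, 1.35 and 1.1 in control hearts, a 3.62-fold difference (1.86 ± 0.15 SE, adjusted p = 0.00138). Its lowest KO-labelled heart lay above its highest control heart, which was control replicate 2. Mcm6 (NM_008567) had 4.89, 4.67 and 4.71 in KO-labelled hearts, against 2.87, 3.29 and 2.96 in control hearts, and was 3.29-fold higher (1.72 ± 0.15 SE, adjusted p = 0.00185). The groups were again apart, with control replicate 2 nearest to the KO-labelled hearts.

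Cdt1 and geminin, the gene pair that permits and blocks loading of the helicase, moved in opposite directions. Cdt1 (NM_026014), which brings the MCM ring to the origin, had signals of 2.08, 2.28 and 2.31 in KO-labelled hearts, against 0.11, 0.58 and 0.13 in control hearts, a 3.86-fold difference (1.95 ± 0.17 SE, adjusted p = 0.00172). Gmnn (NM_020567), whose protein geminin binds Cdt1 and keeps origins from being licensed again, had 0.03, 0.48 and 0.38 in KO-labelled hearts, against 1.40, 0.90 and 1.23 in control hearts. It was the 1 replication gene that was lower, 1.84-fold (difference -0.88 ± 0.18 SE, adjusted p = 0.0129). Its groups did not overlap, KO-labelled replicate 1 lying lowest and control replicate 2 lowest of the controls. Leaving out control replicate 1 ended the call of Gmnn (adjusted p = 0.0519), as did leaving out control replicate 3 (adjusted p = 0.0527) or the replicate block (adjusted p = 0.0532), at differences of -0.77, -0.85 and -0.88, and over all alternatives its difference ran between -1.02 and -0.65. Whether Gmnn differed from Cdt1 in its response was not tested.

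Among the remaining licensing genes, Orc6, a subunit of the origin recognition complex, was higher by a smaller amount, with 2.15, 2.28 and 2.37 in KO-labelled hearts and 1.55, 1.61 and 1.60 in control hearts (difference 0.68 ± 0.11 SE, adjusted p = 0.0063). Cdc6, the loading ATPase, was well above background on all 3 KO-labelled arrays, at -2.93, -2.68 and -2.87, and on no control array, where it read -3.78, -4.33 and -5.34. With control readings below the lowest signal that counts as measured on their array raised to it, Cdc6 was 2.55-fold higher. Its means as read were -2.83 and -4.48, a difference of 1.65 (adjusted p = 0.0161). Such a floored fold is not a strict minimum, and it holds for the scanner's own background subtraction. With normexp background correction, Cdc6 had a difference of 0.35 and did not pass (adjusted p = 0.113). Its other probe was likewise well above background on all 3 KO-labelled arrays and on no control array. Without KO-labelled replicate 1 the Cdc6 difference was 2.69. Orc1, the largest subunit of the origin complex, read between -4.54 and -3.93 in KO-labelled hearts and between -6.05 and -4.30 in control hearts, below background on all 6 arrays.

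**Figure D2:**
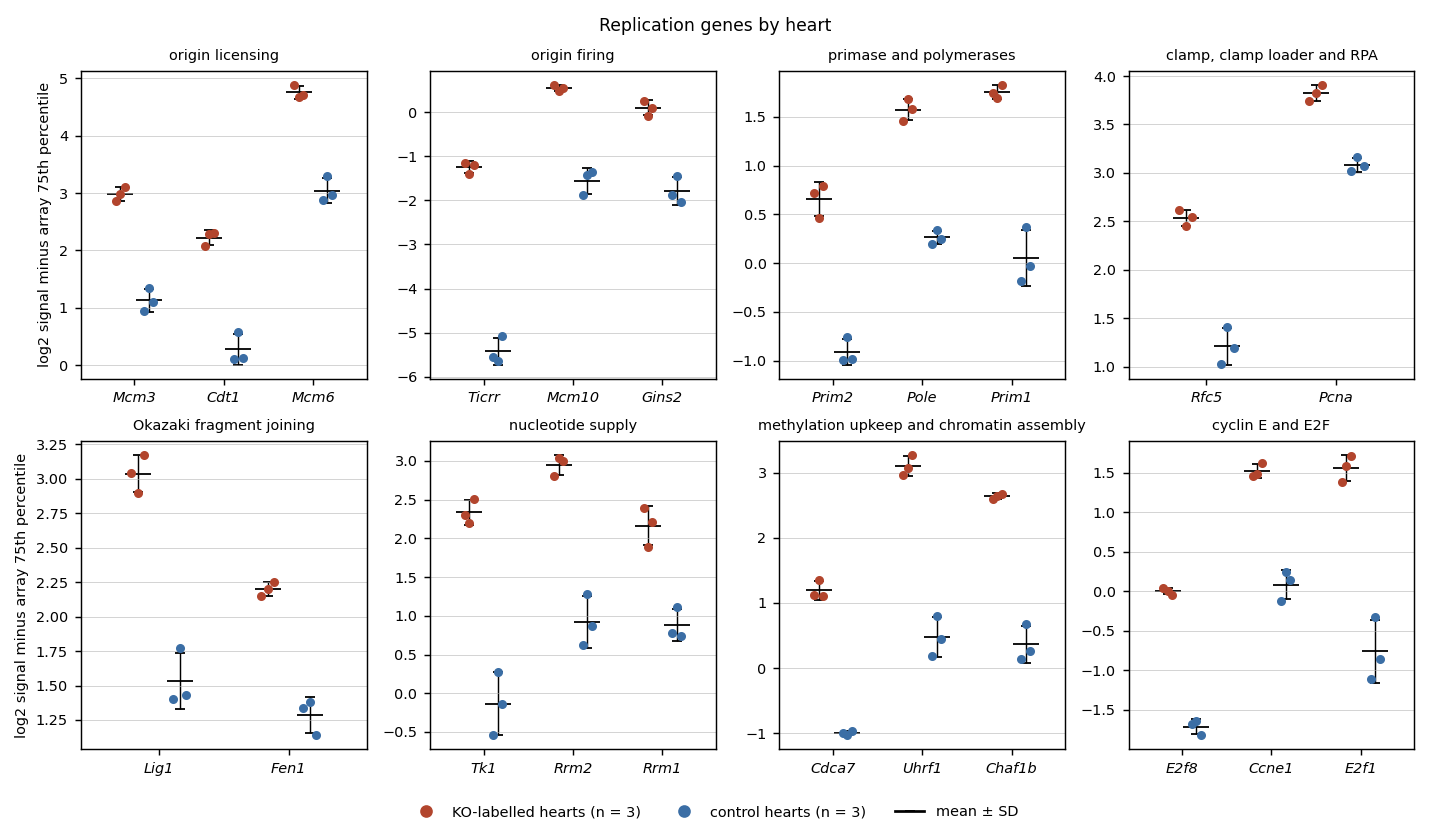
Log2 signal minus the 75th percentile of its array (vertical axes, scaled separately in each panel) in each of 3 KO-labelled and 3 control hearts, for up to 3 genes with the smallest p in each role, with mean ± SD. The hearts of the 2 groups do not overlap for any gene shown, and levels of different genes are not comparable because each has its own probe.

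Origin firing split into genes with large rises and subunits that did not pass. Of 8 tested genes 5 were higher and 3 did not pass, with a median difference of 1.15. Ticrr (NM_029835), also known as Treslin, which recruits the firing machinery, had signals of -1.15, -1.41 and -1.21 in KO-labelled hearts, against -5.56, -5.63 and -5.08 in control hearts. It had the largest difference of the 48 genes (4.16 ± 0.18 SE, adjusted p = 0.00125), but no control array measured it above background. With the same floor for control readings it was 9.41-fold higher, with means of -1.26 and -5.42 as read. With normexp its difference was 1.07 and it still passed. Dbf4, the activating subunit of the Cdc7 kinase, had -1.91, -2.23 and -2.54 in KO-labelled hearts and -5.30, -3.79 and -4.27, below background, in control hearts. With the floor it was 3.75-fold higher, and its means as read were -2.23 and -4.45 (adjusted p = 0.00727). With normexp its difference was 0.35. Its partner Cdc7 was well above background on 2 KO-labelled arrays and no control array and was not tested.

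Mcm10 (NM_027290), a scaffold that helps activate the helicase, had signals of 0.62, 0.48 and 0.55 in KO-labelled hearts, against -1.89, -1.42 and -1.36 in control hearts, a 4.31-fold difference (2.11 ± 0.17 SE, adjusted p = 0.00138). The KO-labelled hearts lay within 0.14 of one another and far above every control heart. With normexp the Mcm10 difference was 1.24 and still passed. The 4 GINS subunits, which join the MCM ring and Cdc45 in the active helicase, were unequal. Gins2 (NM_178856) had 0.26, -0.08 and 0.10 in KO-labelled hearts, against -1.88, -1.44 and -2.04 in control hearts, a 3.68-fold difference (1.88 ± 0.19 SE, adjusted p = 0.00228), and with normexp its difference was 1.16 and still passed. Gins1 was higher by 0.42 ± 0.12 SE (adjusted p = 0.0341) and did not pass under 9 of 19 alternatives. Gins3 had a difference of 0.09 with a 95% interval of -0.24 to 0.41 (adjusted p = 0.633), and Gins4 one of 0.15 with an interval of -0.20 to 0.50 (adjusted p = 0.437). The hearts of the 2 groups overlapped for both. Cdc45 had a difference of 0.35 (interval -0.09 to 0.79, adjusted p = 0.173), also with overlap, was well above background on 2 of 3 control arrays, and passed under 3 of 18 alternatives. These intervals leave out differences as large as that of Gins2, although differences between genes were not tested.

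Of the 7 genes of primase and the replicative polymerases, 6 were higher and 1 did not pass, with a median difference of 1.31. Polymerase alpha and primase lay the RNA and DNA primer, polymerase epsilon extends the leading strand and polymerase delta the lagging strand. Prim2 (NM_008922), the large primase subunit, had signals of 0.72, 0.46 and 0.79 in KO-labelled hearts, against -0.99, -0.76 and -0.98 in control hearts, a 2.97-fold difference (1.57 ± 0.14 SE, adjusted p = 0.00186). Prim1 (NM_008921), the catalytic primase subunit, had 1.74, 1.69 and 1.83 in KO-labelled hearts, against -0.18, 0.37 and -0.03 in control hearts, a 3.25-fold difference (1.70 ± 0.16 SE, adjusted p = 0.0022). In both genes every KO-labelled heart exceeded every control heart.

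Pole (NM_011132), the catalytic subunit of polymerase epsilon, had 1.46, 1.68 and 1.58 in KO-labelled hearts, against 0.20, 0.34 and 0.25 in control hearts (2.48-fold, 1.31 ± 0.12 SE, adjusted p = 0.00186). The groups were more than 1 log2 unit apart at their nearest hearts, and a second Pole probe was below background on all 6 arrays. Its accessory subunit Pole2 was higher by 1.74 ± 0.34 SE (adjusted p = 0.0101), and by 0.57 with normexp. Pola1 and Pold1, the catalytic subunits of polymerases alpha and delta, were higher by 0.85 ± 0.14 SE (adjusted p = 0.00623) and 0.65 ± 0.12 SE (adjusted p = 0.00811). Pola2, the regulatory subunit that tethers primase to Pola1, had -2.70, -2.06 and -2.76 in KO-labelled hearts and -2.48, -2.45 and -2.70 in control hearts, which overlapped (difference 0.03, interval -0.47 to 0.53, adjusted p = 0.912).

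The sliding clamp, its loader and replication protein A had few calls. Of 7 tested genes 2 were higher and 5 did not pass, with a median difference of 0.27. Rfc5 (NM_028128), a clamp loader subunit, had signals of 2.62, 2.45 and 2.54 in KO-labelled hearts, against 1.03, 1.41 and 1.19 in control hearts, a 2.51-fold difference (1.33 ± 0.14 SE, adjusted p = 0.0024). Pcna (NM_011045), the clamp that holds polymerases on DNA, had 3.74, 3.83 and 3.91 in KO-labelled hearts, against 3.02, 3.16 and 3.07 in control hearts, a 1.68-fold difference (0.75 ± 0.11 SE, adjusted p = 0.00493). The groups did not overlap for either gene.

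The other loader subunits did not pass. Rfc2 had a difference of 0.27 (interval -0.05 to 0.59, adjusted p = 0.148). Rfc4 had 0.26 (adjusted p = 0.095), and although its 3 KO-labelled hearts lay above the controls on this probe, the difference on its other probe was -0.14. Under 5 of 19 alternatives, normexp, quantile, cyclic loess and spike-in scaling and array weights, Rfc4 passed as higher. Rfc3 was the 1 replication gene with more than 1 log2 unit between KO-labelled hearts, at 1.39, -1.85 and -1.1, against -2.30, -2.01 and -2.91 in control hearts. Its groups did not overlap, but KO-labelled replicate 1 stood apart from the other KO-labelled hearts, and the difference of 1.89 ± 0.80 SE did not pass (adjusted p = 0.101). Without KO-labelled replicate 1 the Rfc3 difference was 0.93 (adjusted p = 0.0864), and without KO-labelled replicate 2 it was 2.55 and passed (adjusted p = 0.0424).

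Replication protein A coats unwound DNA in replication and also in repair. Rpa2 had signals of 0.25, 0.01 and 0.14 in KO-labelled hearts and 0.47, 0.51 and 0.44 in control hearts, a difference of -0.34 with an interval of -0.62 to -0.07 (adjusted p = 0.0553). Rpa1 had 4.12, 4.32 and 4.31 in KO-labelled hearts and 4.45, 4.42 and 4.41 in control hearts, a difference of -0.18 with an interval of -0.45 to 0.09 (adjusted p = 0.244). Both lay lower in all 3 KO-labelled hearts than in any control heart, and neither passed, although Rpa2 passed as lower under 3 of 19 alternatives. The third subunit, Rpa3, listed with the other replication genes, had a difference of -0.09 and did not pass.

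**Figure D3:**
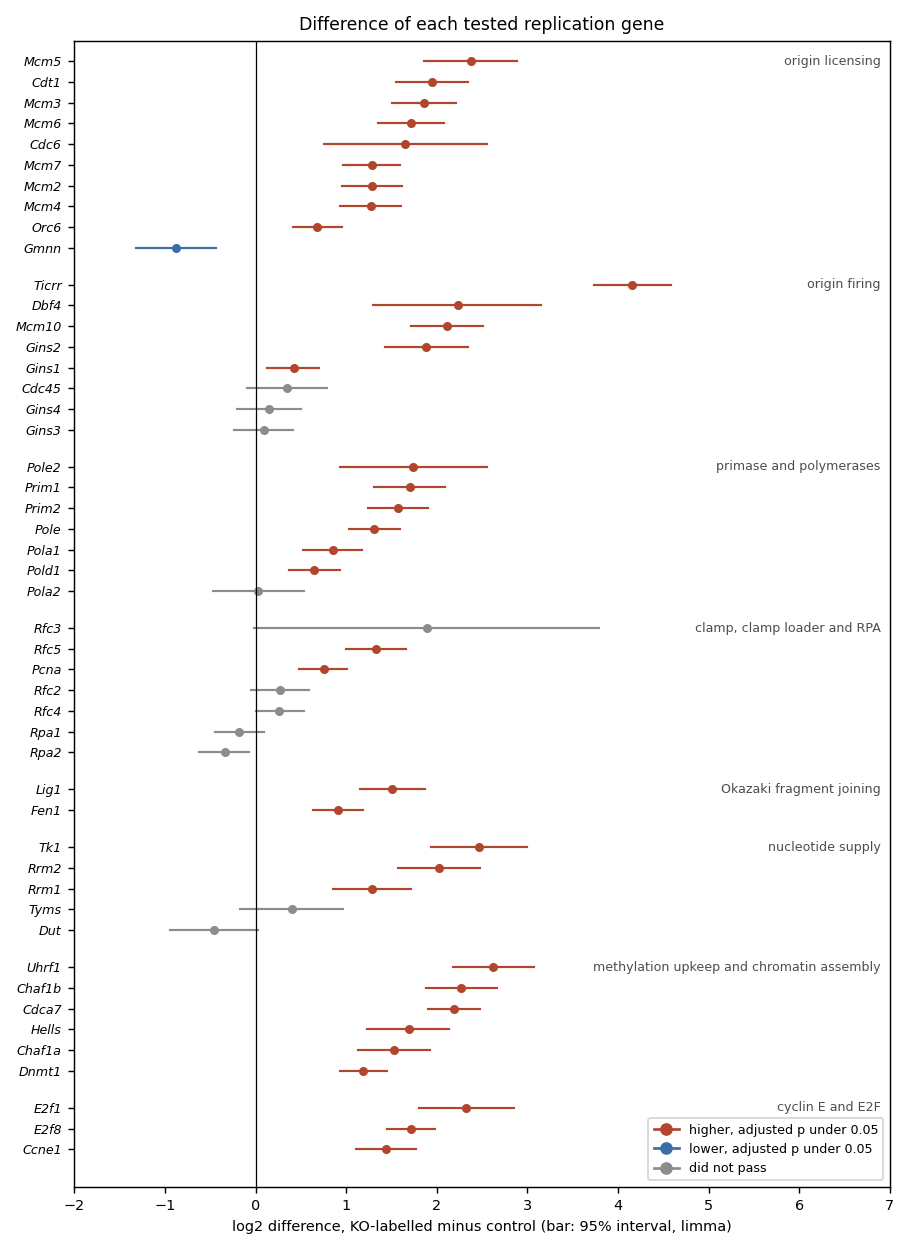
Log2 difference of KO-labelled minus control hearts (horizontal axis) for each of the 48 tested replication genes, grouped by role, with bars for limma's 95% interval. Most points lie right of 0, Gmnn is the only one called lower, and the subunits of replication protein A, Gins3, Gins4 and Pola2 lie near 0 or left of it.

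Both genes that process and join Okazaki fragments were higher. Lig1 (NM_010715), the ligase that seals the lagging strand, had signals of 3.04, 2.90 and 3.17 in KO-labelled hearts, against 1.40, 1.77 and 1.43 in control hearts, a 2.84-fold difference (1.51 ± 0.15 SE, adjusted p = 0.00226). Fen1 (NM_007999), the flap nuclease, had 2.15, 2.20 and 2.25 in KO-labelled hearts, against 1.34, 1.38 and 1.14 in control hearts, a 1.88-fold difference (0.91 ± 0.12 SE, adjusted p = 0.00364). No KO-labelled heart overlapped a control heart for either gene.

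Of 5 nucleotide supply genes 3 were higher and 2 did not pass, with a median difference of 1.29. Tk1 (NM_009387), the thymidine kinase of S phase, had signals of 2.30, 2.20 and 2.51 in KO-labelled hearts, against -0.54, 0.27 and -0.14 in control hearts, a 5.54-fold difference (2.47 ± 0.22 SE, adjusted p = 0.00186). Rrm2 (NM_009104), the ribonucleotide reductase subunit made in S phase, had 2.80, 3.04 and 3.00 in KO-labelled hearts, against 0.62, 1.28 and 0.87 in control hearts, a 4.06-fold difference (2.02 ± 0.19 SE, adjusted p = 0.00213). In both, control replicate 2 was the highest control heart and still lay more than 1 log2 unit below the lowest KO-labelled heart.

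Rrm1 (NM_009103), the partner subunit of the reductase, had 2.39, 1.89 and 2.21 in KO-labelled hearts, against 0.78, 1.12 and 0.74 in control hearts, a 2.44-fold difference (1.29 ± 0.18 SE, adjusted p = 0.00415). Its groups did not overlap. Thymidylate synthase, Tyms, which makes dTMP, had -2.08, -2.77 and -2.38 in KO-labelled hearts and -3.03, -2.95 and -2.44 in control hearts (difference 0.40, interval -0.17 to 0.96, adjusted p = 0.215). Dut, the dUTPase that keeps uracil out of DNA, had -0.10, 0.51 and 0.43 in KO-labelled hearts and 0.92, 0.50 and 0.79 in control hearts (difference -0.46, interval -0.95 to 0.03, adjusted p = 0.115). The groups overlapped for both Tyms and Dut.

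All 6 genes of methylation upkeep and chromatin assembly were higher, with a median difference of 1.94. Uhrf1 (NM_010931), which reads hemimethylated DNA and recruits the maintenance methyltransferase, had signals of 2.96, 3.07 and 3.27 in KO-labelled hearts, against 0.18, 0.80 and 0.45 in control hearts. Its 6.16-fold difference (2.62 ± 0.19 SE, adjusted p = 0.00125) was the largest fold among the 42 genes well above background on all 6 arrays. A second Uhrf1 probe was well above background on 2 KO-labelled arrays and no control array and was not tested. Cdca7 (NM_025866), which works with the remodeller Hells at heterochromatin, had 1.12, 1.36 and 1.1 in KO-labelled hearts, against -0.99, -1.03 and -0.97 in control hearts, a 4.56-fold difference (2.19 ± 0.12 SE, adjusted p = 0.00125). The 3 control hearts lay within 0.06 of one another for Cdca7 and far below the KO-labelled hearts.

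Chaf1b (NM_028083), a subunit of the chromatin assembly factor that lays histones on new DNA, had 2.59, 2.64 and 2.68 in KO-labelled hearts, against 0.14, 0.68 and 0.27 in control hearts, a 4.83-fold difference (2.27 ± 0.16 SE, adjusted p = 0.00125). The difference on its other probe was 2.53, and neither probe showed overlap between the groups. Its partner subunit Chaf1a was higher by 1.53 ± 0.17 SE (adjusted p = 0.0026), and the methyltransferase Dnmt1 by 1.19 ± 0.11 SE (adjusted p = 0.0021). Hells had -2.08, -2.22 and -2.29 in KO-labelled hearts and -3.97, -4.17 and -3.51 in control hearts, where no array measured it above background. Its fold was 3.22 (adjusted p = 0.00276, means of -2.20 and -3.88), and the floor did not change it, so no minimum can be given. With normexp it had 0.30 and did not pass (adjusted p = 0.0901).

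All 3 tested genes of cyclin E and E2F were higher, with a median difference of 1.71. E2f1 (NM_007891), the activator that switches on S phase genes, had signals of 1.39, 1.59 and 1.71 in KO-labelled hearts, against -1.11, -0.32 and -0.85 in control hearts, a 5.01-fold difference (2.32 ± 0.22 SE, adjusted p = 0.00213). E2f8 (NM_001013368), an atypical E2F that represses the same targets, had 0.04, 0.01 and -0.04 in KO-labelled hearts, against -1.68, -1.64 and -1.82 in control hearts, a 3.28-fold difference (1.71 ± 0.11 SE, adjusted p = 0.00125). With normexp the E2f8 difference was 0.86 and still passed. Ccne1 (NM_007633), the cyclin that drives Cdk2 at the start of S phase, had 1.46, 1.49 and 1.63 in KO-labelled hearts, against -0.12, 0.24 and 0.14 in control hearts, a 2.72-fold difference (1.44 ± 0.14 SE, adjusted p = 0.00213). The activator and the repressor were thus both higher without overlap between hearts. Ccne2 read between -6.30 and -5.77 in KO-labelled hearts and between -6.37 and -5.72 in control hearts, below background throughout.

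The listed genes outside the 51 that act in replication were less uniform. The 51 genes and this list were chosen with earlier results of these data known. The contrast between them can therefore not be read as a trait of the genes, and it was not tested. The shares over all genes and features were 16.1% higher and 23.0% lower, and over those with a symbol 19.1% and 22.9%. Of 43 listed other replication genes 38 were tested, and 18 were higher, 1 was lower and 19 did not pass, with a median difference of 0.42. The genes with the smallest p were Atad5 (1.65 ± 0.12 SE, adjusted p = 0.00125), Dscc1 (2.21 ± 0.17 SE, adjusted p = 0.00133) and Chtf18 (1.76 ± 0.14 SE, adjusted p = 0.00143), which load or unload the clamp in alternative loader complexes. They were followed by the histone chaperone Asf1b (1.94 ± 0.17 SE, adjusted p = 0.00186) and the nuclease Exo1 (2.76 ± 0.26 SE, adjusted p = 0.00213). Dscc1 was well above background on no control array, Exo1 on 1 and Atad5 on 2, and with normexp their differences were 0.56, 1.19 and 0.47. The origin recognition genes Orc2, Orc3, Orc4 and Orc5 did not pass, with differences of 0.06, -0.37, -0.14 and -0.21.

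Among regulators of the E2F and RB pathway more genes were higher than lower. Of 17 listed genes 16 were tested, and 7 were higher, 3 were lower and 6 did not pass, with a median difference of 0.36. Over all genes and features 16.1% were higher and 23.0% lower. Mybl2 (2.54 ± 0.21 SE, adjusted p = 0.00164), which drives late cell cycle genes, the repressor E2f7 (2.14 ± 0.20 SE, adjusted p = 0.00214), the S phase cyclin Ccna2 (3.07 ± 0.30 SE, adjusted p = 0.0022), the activator E2f2 (1.81 ± 0.18 SE, adjusted p = 0.00229) and the pocket protein p107, Rbl1 (1.73 ± 0.20 SE, adjusted p = 0.00293), were higher. The other E2f7 probe, well above background on all 6 arrays, had a difference of -0.57 (adjusted p = 0.0769 over all probes). The mean of both E2f7 probes gave 0.79 (adjusted p = 0.0261). With normexp the differences of E2f7 and Rbl1 were 1.17 and 0.98 and still passed. Ccna2 had signals of 2.42, 2.16 and 2.62 in KO-labelled hearts, against -1.19, -0.05 and -0.77 in control hearts, and the groups were more than 2 log2 units apart. The 3 genes that were lower were the E2F partner Tfdp2 (-1.0 ± 0.16 SE, adjusted p = 0.00545), the repressor E2f6 (-0.78 ± 0.16 SE, adjusted p = 0.012) and the pocket protein p130, Rbl2 (-0.76 ± 0.16 SE, adjusted p = 0.0119), which binds E2F targets in quiescent cells. Rbl2 had -1.65, -1.35 and -1.33 in KO-labelled hearts, against -0.80, -0.45 and -0.78 in control hearts, without overlap, missed the threshold under spike-in scaling (adjusted p = 0.116) and had a difference of -0.46 with normexp. E2f6 missed it when control replicate 3 was left out (adjusted p = 0.0529). The pocket protein gene Rb1 itself did not pass.

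**Figure D4:**
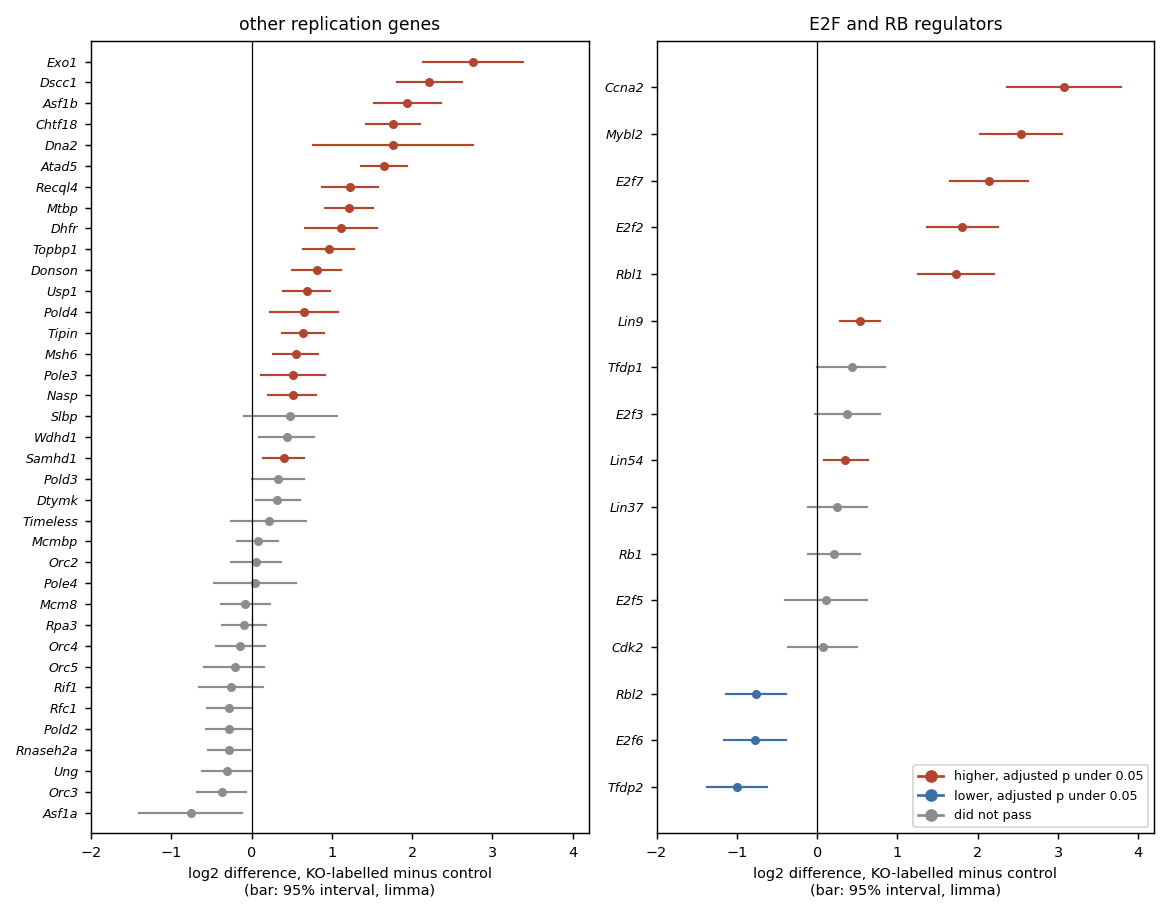
Log2 difference of KO-labelled minus control hearts (horizontal axes) with limma's 95% interval for 37 of the 38 tested other replication genes (left) and the 16 tested E2F and RB regulators (right). The left panel has 18 genes called higher, and the right panel 7 called higher and 3 called lower.

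Markers of cycling cells other than replication genes were higher in the same hearts. All 8 that were tested passed (Mki67, Top2a, Ccnb1, Ccnb2, Cdk1, Bub1, Plk1 and Birc5), with differences of 2.65 to 3.30 and a median of 3.09. The share higher was 16.1% over all genes and features and 19.1% over those with a symbol. Aurkb was below background on all 6 arrays, Cdk1 was above background on no control array, and Top2a and Bub1 on 1. Mki67, which is made by cells in all phases of the cycle but not in quiescence, had signals of 3.95, 3.84 and 3.99 in KO-labelled hearts, against 0.70, 1.54 and 0.97 in control hearts (difference 2.86 ± 0.22 SE, adjusted p = 0.00134). The mean signal of these 8 genes ran between 1.41 and 1.78 in KO-labelled hearts and between -1.88 and -0.69 in control hearts. The mean of the 48 replication genes ran between 1.12 and 1.21 in KO-labelled hearts and between -0.19 and 0.03 in control hearts.

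Some markers of several cell types differed between the groups beside the replication genes. Over all genes and features 39.1% passed, 16.1% higher and 23.0% lower. With a symbol 42.0% passed, 19.1% higher and 22.9% lower. Whether any marker list departed from these shares was not tested. Of 6 cardiomyocyte markers 5 were lower, and their mean signal ran between 7.99 and 8.30 in KO-labelled hearts and between 8.71 and 9.06 in control hearts. Under quantile scaling or cyclic loess 2 of the 6 were lower, and under spike-in scaling 4. Of 6 fibroblast markers 4 were higher (Col1a1, Col1a2, Tcf21 and Lum), with means of 5.39 to 5.51 in KO-labelled hearts and 4.02 to 4.92 in control hearts, while Pdgfra and Dcn did not pass. Of 6 macrophage markers with a probe 3 were higher (Csf1r, Adgre1 and C1qa) and Itgam was lower, though not under spike-in scaling, with means of 3.96 to 4.74 in KO-labelled hearts and 3.26 to 3.90 in control hearts. Of 6 mural markers 2 were higher and 2 lower (means of 3.45 to 3.68 in KO-labelled hearts and 3.46 to 3.48 in control hearts), and 3 were higher under quantile, cyclic loess and spike-in scaling. The part of these cell types in the differences of the replication genes was not tested.

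In the remaining lists few markers passed, beside 39.1% of all genes and features. Of 6 endothelial markers 0 passed, with means of 2.48 to 2.79 in KO-labelled hearts and 2.72 to 2.96 in control hearts, and of 3 tested erythroid markers 0 passed, with means of 4.03 to 4.46 in KO-labelled hearts and 4.27 to 4.90 in control hearts. Of 4 tested neutrophil markers 0 passed, with means of -1.0 to 1.81 in KO-labelled hearts, the highest in replicate 1, and -2.01 to -0.83 in control hearts. Of 4 epicardial markers 0 passed, with means of 1.06 to 1.69 in KO-labelled hearts and 0.09 to 2.74 in control hearts, the highest in replicate 2. Of 3 tested lymphocyte markers only Cd3d was higher, with list means of 0.24 to 1.82 in KO-labelled hearts, the highest in replicate 2, and -0.98 to -0.23 in control hearts. Cd3d, a subunit of the T cell receptor complex, had signals of -1.88, 1.47 and -1.64 in KO-labelled hearts, against -5.43, -2.81 and -3.90 in control hearts, where 1 array measured it well above background (adjusted p = 0.0414). KO-labelled replicate 2 stood well above the other KO-labelled hearts.

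**Figure D5:**
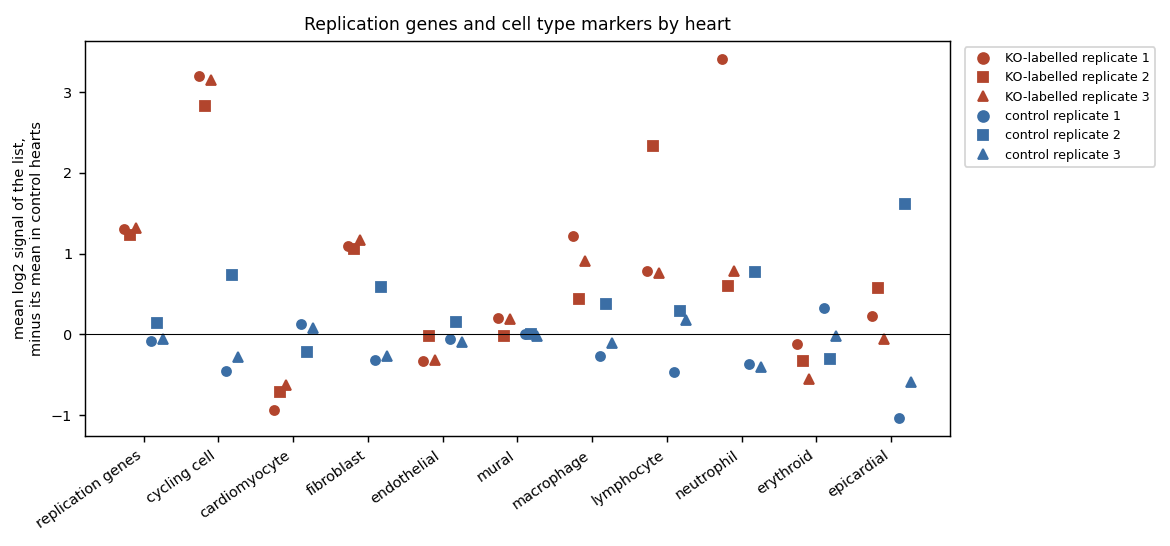
Mean log2 signal of each gene list in each heart, minus the mean of the list in control hearts (vertical axis), for the 48 replication genes and 10 marker lists (horizontal axis). The replication genes and cycling markers are high in all 3 KO-labelled hearts, the neutrophil list is high in KO-labelled replicate 1 only, and control replicate 2 is the highest control for the replication, cycling, fibroblast, endothelial, macrophage, lymphocyte, neutrophil and epicardial lists and the lowest for the cardiomyocyte and erythroid lists.

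Within the control group, 1 heart stood nearest to the KO-labelled hearts. Control replicate 2 was the highest of the 3 control hearts for 34 of the 48 replication genes (70.8%), beside 24.8% of all genes and features, and its mean deviation from the control mean over the 48 genes was 0.14. It was also the highest control for the means of the cycling, fibroblast, endothelial, macrophage, lymphocyte, neutrophil and epicardial markers and the lowest for the cardiomyocyte and erythroid markers, and the part of those cells in its replication values was not tested. The array of control replicate 2 was also brighter before scaling, with a 75th percentile signal of 200.8 against 147.4 and 147.5 on the other control arrays. On KO-labelled arrays this signal was 186.7 to 235.4. The part of array brightness in the replication values was not tested either. Without control replicate 2, 36 replication genes were higher and their median difference was 1.48. The KO-labelled hearts had no such order, since replicate 1 was the highest for 18 genes, replicate 2 for 9 and replicate 3 for 21.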

How the data were processed

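Brightness per spot is an intensity on a linear scale, made with Agilent Feature Extraction 11.0.1.1 per the submitters' processing notes and deposited with flags (other) for spots above background, saturated or outlying. The authors' deposited table of log2 values, for which the notes also name R 3.1.3, served as an alternative only. Its normalization method is not stated in those notes or the labels. From the deposited processed intensity, log2 was taken, control and outlier spots were left out, spots of a probe were averaged, and each array's 75th percentile was subtracted. Of 55681 probes 73 were dropped. RefSeq accessions named 26551 and left 29057 without a symbol. A probe was tested if all arrays of either group measured it well above background, and a gene was its probe with the highest mean.

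The moderated test was that of limma (version 3.58.1, under R 4.3.3), 2-sided, with Benjamini-Hochberg adjustment over all genes and features tested, at 0.05. An exact permutation test of 3 hearts against 3 cannot give a p below 0.1. Every call therefore rests on the assumption of normal errors, and limma also draws on spread shared between genes. The fit was tested on simulated data with independent normal noise for each feature. Such data hold no shifts shared by the genes of a heart or array, so they cannot speak to these. A floored fold for a group without signal above background used, on each array, the higher of the gene's own signal and the lowest signal well above background. It is not a strict minimum, since the gene's own unmeasured signal can be the higher.

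The genes, roles and lists were chosen with earlier results of these data known. In each role up to 3 passing genes with the smallest p are given by heart, all that fell, did not pass or were not measured are named, and of the other lists the 5 with the smallest p in each direction. Further list genes were named after their values were seen. Some list genes are not reported here. Promoters shown were the largest rises with E2F letters, kept to bases before the annotated gene, which left out genes the rule alone would have shown.

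Alternatives were normexp (offset 50, on median in place of mean spot signals), quantile, median, cyclic loess and spike-in scaling, the deposited table, other dim probe filters, the mean of a gene's probes, array weights, trend and robust fitting, the replicate block, each heart left out, and a threshold of 0.01. Deviations of hearts with the same replicate number correlated at -0.15, -0.13 and -0.10, and those of hearts with different numbers at -0.17 to 0.27. With 3 hearts per group this cannot settle whether the numbers pair hearts, and the main fit took them as unpaired. No slide block could be fitted, since all arrays lay on 1 slide.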

Additional observations from a re-analysis of the deposited data

How the results depend on the processing

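Of the 37 replication genes called, 32 passed under every alternative that could test them and 0 changed direction. The other 5 were Cdc6, Gins1, Gmnn, Hells and Pole2, which did not pass at a threshold of 0.01 (Cdc6, Gins1, Gmnn, Pole2), with normexp (Cdc6, Hells) or in other settings. Among the 32, Ticrr and Dbf4 could be tested under 17 of 19 alternatives. They were not tested in the deposited table, where 44 replication genes were, or where every array had to be well above background. The number of replication genes higher was 36 and ran between 31 and 41 over the alternatives. It was 31 where only genes well above background on all 6 arrays were tested, which leaves fewer genes, and 41 with array weights, a fit that stopped before it converged. Leaving out 1 heart gave 35 to 36. Of the 11 replication genes that did not pass, Rfc4 passed under 5 alternatives, Cdc45 and Rpa2 under 3 each, Rfc3 under 2, and Gins4, Rfc2 and Dut under 1 each.

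The number lower was 1, and it was 0 at 0.01, 2 with normexp or quantile scaling, 3 with array weights and 0 to 1 with a heart left out. Their median difference of 1.39 was 1.04 with normexp and 1.62 with spike-in scaling, which moved the median of all genes from -0.11 to 0.12, and 1.31 to 1.48 with a heart left out. Of the other replication genes 18 were higher, and 12 to 18 with a heart left out. The 1 that was lower became 0 at 0.01 or with spike-in scaling, 3 with normexp, 2 with median scaling or with trend and robust fitting, 6 with array weights, and 0 to 2 with a heart left out. Egln1 passed under every alternative, at -1.38 to -1.04 with a heart left out. All calls numbered 7820, and 3093 at 0.01, 4345 with no filter on dim probes, 13709 with array weights and 3900 to 8692 with a heart left out. The lowest were 3900 without control replicate 1, 4019 without control replicate 3 and 5110 without KO-labelled replicate 3.

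Hearts with the same replicate number also had arrays at the same place along their line on the slide. The replicate block cannot tell the number and the place apart. With the replicate block, 35 replication genes were higher and 0 lower, 13 other replication genes were higher and 0 lower, and 4854 genes and features were called. Where an alternative moved a count, the cause was not tested. Normexp lowered the differences of the dim genes Ticrr, Dbf4, Cdc6, Hells and Pole2, and of Dscc1, Exo1 and Atad5 among the other replication genes. The lowering was not confined to dim genes. The median difference of the replication genes went from 1.39 to 1.04. Cdca7, Cdt1 and Dnmt1, well above background on every array, also had smaller differences with normexp, while that of Lig1 did not fall. The part of dimness in the lowering was not tested.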
